A study of Mus musculus with 8 samples.

Results

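The clustered protocadherins are cell surface adhesion proteins encoded by 3 gene clusters, alpha, beta and gamma, that lie side by side on mouse chromosome 18. All rows of the count table whose gene symbol began with Pcdha, Pcdhb or Pcdhg were taken, which gave 24 of 39017 rows: 1 alpha row, 22 beta rows and 1 gamma row. The cells sequenced were tdTomato-positive cells of the cochlear nucleus, the first auditory relay of the hindbrain, taken by sorting from C57BL/6 mouse embryos at E18.5, to ask what Hoxa2 and Hoxb2 do in them. All embryos carried the Math1::Cre driver, which marks the lineage of the rhombic lip factor Math1 (Atoh1), and the Rosa tdTomato reporter. The 4 wild type samples carried nothing further, and the 4 mutant samples also carried conditional alleles of the hindbrain patterning genes Hoxa2 and Hoxb2. For Hoxa2 the titles give Hoxa2+/fl and the design text gives Hoxa2fl/fl, and both give Hoxb2fl/fl. Each sample was a pool of 3 littermates and came from a mother of its own, so p-values measure spread between separate litters.

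As background, each alpha or gamma transcript joins 1 variable exon, which encodes the extracellular, transmembrane and proximal cytoplasmic parts, to a set of constant exons shared by the whole cluster. Beta genes have a single coding exon and no shared constant region. Neurons choose a small set of these promoters, largely at random, under the control of the insulator protein CTCF, cohesin and DNA methylation, and the proteins bind like with like across membranes. In the nervous system the family is known for self-avoidance of dendrites, axon arrangement, synapse formation and, for gamma, neuron survival.

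Neither the alpha nor the gamma row measures a single isoform. The alpha row (ENSMUSG00000007440, symbol Pcdha11) has a deposited length of 24670 bases, against 5359 bases in the GENCODE M21 model of the same identifier. The gamma row (ENSMUSG00000023036, symbol Pcdhgc4) has 26094 bases, against 5596. These lengths are 60.5% and 36.8% of all exonic bases that M21 annotates for the 14 alpha and the 22 gamma genes. The 2 rows are therefore described as the alpha and the gamma row. The other 13 alpha and 21 gamma genes of M21 had no row of their own in the count table. No choice among alpha or gamma promoters can be read from the 2 rows.

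The beta cluster was complete at the gene level. All 22 beta genes, Pcdhb1 to Pcdhb22, had a row of their own, and in M21 they lie in that order on the plus strand (mm10, chr18:37264938-37524479), each as a single block of exonic sequence. The alpha row spans chr18:37005203-37187657 before them in M21, and the gamma row chr18:37815079-37841873 after them. Related beta genes share stretches of sequence, so reads can be ambiguous. Of all 50-base stretches of a beta gene, between 0% (Pcdhb1) and 11.28% (Pcdhb21) also occur in another gene, except for Pcdhb12 at 64.22%, shared mostly with the gene model Gm37446. The M21 models of Pcdhb21 and Pcdhb22 overlap on the chromosome, so part of what they share is the same sequence under 2 names. Whether Gm37446 or that overlap was part of the annotation used for counting was not checked. Counts of Pcdhb12, Pcdhb21 and Pcdhb22 may therefore be uncertain.

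Total counts were 24789043 to 51118195 per library, and the 24 rows together held 0.0567% to 0.0777% of them. Libraries are named by group and by the number in the column heading, mutant 1 to 4 and wild type 5 to 8. Hoxb2 fell from 40.1 ± 4.41 to 5.02 ± 1.49 CPM (TMM-scaled count that adjusts for library size; SD, n = 4 libraries each; edgeR adjusted p = 3.758e-05). Hoxa2 was at 43.2 ± 10.99 and 26.7 ± 15.7 CPM and did not pass (edgeR adjusted p = 0.506). A count over a whole gene can include exons that a deletion leaves in place. The part of such exons, or of the Hoxa2+/fl genotype in the titles, was not tested. The labelled lineage was present: Atoh1 ranged from 28.5 to 154 CPM and Barhl1, a factor of the same lineage, from 352 to 541 CPM. Lhx2 and Lhx9, listed with them as markers, were low, at 1.70 to 6.89 and 5.19 to 15.8 CPM. Mutant 1, wild type 5 and wild type 6 had the lowest summed levels of 13 neuronal markers, 4497, 4517 and 4292 CPM against 5028 to 6365 CPM in the other 5 libraries, but Zic1 alone made up 50.8% to 66.3% of each sum. Leaving out Zic1, a choice made after its values were seen, gave 2207, 2110, 2294 and 2334 CPM for wild type 5 to 8, and 1912, 1912, 2143 and 1867 CPM for mutant 1 to 4. Within the list Atoh1 went the other way, with its highest levels in mutant 1, wild type 5 and wild type 6 at 134, 89.1 and 154 CPM against 28.5 to 59.3 CPM in the rest. Wild type 6 and mutant 1 also had the highest sums of 7 astrocyte and radial glia markers, 835 and 774 CPM against 377 to 637 CPM in the rest.

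Per kb of deposited length the gamma row was the most abundant member, and most beta genes were low. The place of the alpha and gamma rows in this order rests on their deposited lengths, which differ from those of the M21 models as given above. The gamma row had 12.6 ± 0.972 CPM per kb of deposited length in wild type and 13.7 ± 1.70 in mutant libraries (SD, n = 4 each). The alpha row had 4.79 ± 1.17 and 6.72 ± 1.28 CPM per kb (SD, n = 4 each). Averaged over the 22 beta genes, the level was 2.07 ± 0.478 CPM per kb in wild type and 2.27 ± 0.233 in mutant libraries (SD, n = 4 each). Among all tested genes the mean level per kb of the gamma row stood at the 78.5th percentile, that of the alpha row at the 58.8th and that of Pcdhb6, the lowest tested member, at the 18.3rd. By counts, gamma held 46.1% to 58.3% of all reads on members, beta 25.1% to 31.3% and alpha 16.6% to 26.0%, depending on the library.

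Among the beta genes a graded profile recurred in every library. By deposited length, Pcdhb17 had the highest level per kb and Pcdhb16 the second highest in all 8 libraries. Pcdhb1 was the lowest in all 8. The size of the lead of Pcdhb17 depends on length: with M21 lengths the means were 5.69 (Pcdhb17) and 5.28 CPM per kb (Pcdhb16). Pcdhb16 held more counts over the 8 libraries, 7896 against 7640. The order within each library was not examined with M21 lengths. Pcdhb17 (ENSMUSG00000046387, chr18:37484795-37489454) gave 7.63, 5.63, 9.37 and 9.06 CPM per kb for wild type 5 to 8, and mutant 1 to 4 gave 7.68, 8.05, 8.55 and 8.93. Pcdhb16 (ENSMUSG00000047910, chr18:37477814-37483038) gave 4.34, 3.90, 7.41 and 5.88 CPM per kb for wild type 5 to 8, and mutant 1 to 4 gave 4.26, 4.87, 4.82 and 6.39. For both genes the groups overlapped, and wild type 6 was the lowest of the 8 libraries.

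Below these, Pcdhb18, Pcdhb20, Pcdhb19, Pcdhb7 and Pcdhb21 averaged 3.97, 3.87, 3.38, 3.33 and 3.18 CPM per kb over the 8 libraries. Neighbours in that run were not separated: each was above the next in only 4 to 6 of 8 libraries. Pcdhb22 followed at 2.32 CPM per kb and lay below Pcdhb21 in all 8. The next 13 genes, from Pcdhb15 at 1.70 through Pcdhb6 at 0.580 CPM per kb, formed a continuous slope in which no gene was above the next in all 8 libraries. By deposited length, Pcdhb7 was the only gene among the first 15 whose mean level exceeded that of any gene from Pcdhb16 onward. With M21 lengths Pcdhb22, at 1.08 CPM per kb, also lay below Pcdhb15, Pcdhb3, Pcdhb4 and Pcdhb9, at 1.70, 1.63, 1.44 and 1.38.

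Pcdhb1 was barely detected. Wild type 5 to 8 held 4, 9, 6 and 0 of its reads, and mutant 1 to 4 held 5, 1, 5 and 8. The largest count, 9 in wild type 6, corresponds to 0.363 CPM of the library total with an exact 95% interval of 0.166 to 0.689, and the 0 in wild type 8 allows up to 0.0749 CPM (3 counts). Intervals and limits cover counting error only, since PCR copies are not independent molecules. The other 21 beta genes had 10 or more counts in every library.

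The higher levels lay toward the 3′ end of the cluster. Pcdhb16 to Pcdhb22 held 64.5% (mutant 1) to 72.0% (wild type 6) of all beta counts, and their mean level per kb was 3.67 times that of Pcdhb1 to Pcdhb15, as an average of the 8 libraries. That ratio was 2.88 in mutant 1 and 3.55 to 3.99 in the other 7. The boundary after Pcdhb15 was chosen after the values were seen, so the ratio is a description. Spearman's rho between mean level per kb and order in the cluster was 0.66 over the 22 genes, which share libraries and neighbourhood, and it was 0.55 with M21 exon lengths in place of the deposited ones. The length matters most for Pcdhb14 and Pcdhb22, whose M21 models of 8695 and 6609 bases are far longer than the deposited 3438 and 3067. With M21 lengths they ranked 20th and 12th of 22, in place of 13th and 8th. Pcdhb17, Pcdhb16 and Pcdhb18 stayed the first 3 by mean level. The M21 model of Pcdhb17 is longer too, at 4660 bases against 3269, which narrows its lead over Pcdhb16.

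**Figure D1:**
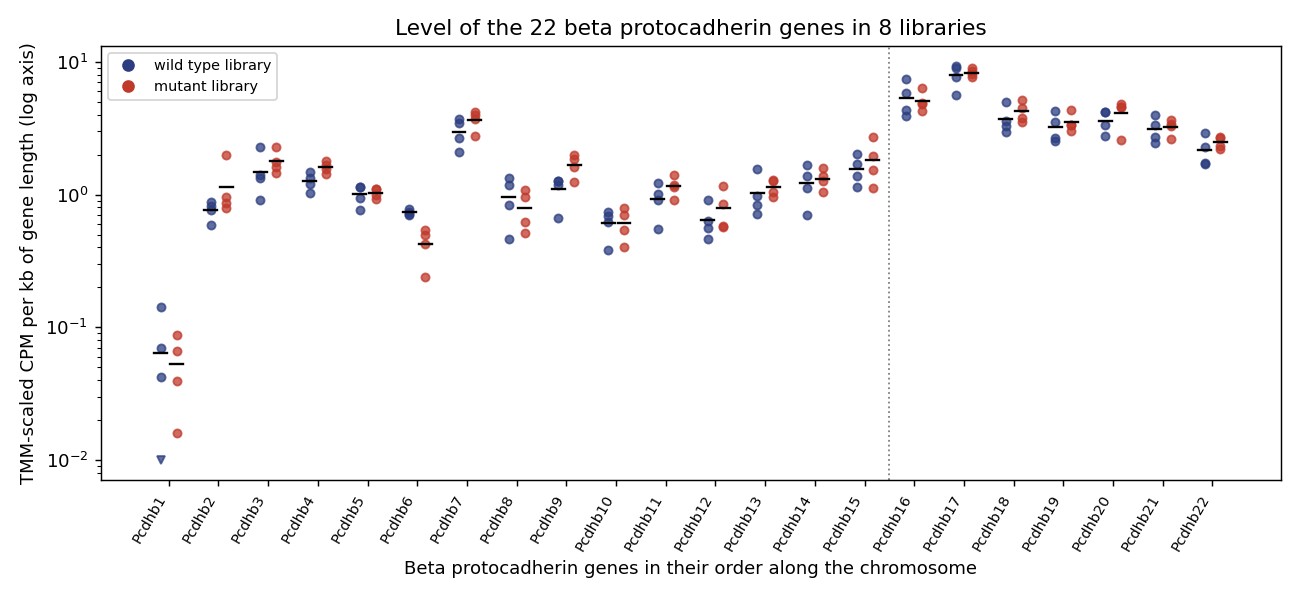
Level of each beta gene (TMM-scaled CPM per kb of deposited length, log axis) in the 4 wild type (blue) and 4 mutant (red) libraries, with genes in chromosome order, a black bar for each group mean and a triangle at the bottom edge for the library with a count of 0. Pcdhb17 and Pcdhb16 are the highest genes in both groups, Pcdhb1 is the lowest, and the genes right of the dotted line, Pcdhb16 to Pcdhb22, have mean levels of 2.32 to 8.11.

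The beta profile was alike in all libraries, of the same group or not. Spearman's rho of the 22 levels per kb was 0.903 to 0.962 between pairs of wild type libraries (6 pairs, median 0.930). It was 0.906 to 0.9797 between pairs of mutant libraries (6 pairs, median 0.933) and 0.892 to 0.974 across groups (16 pairs, median 0.922). Gene lengths and sequence are common to all libraries and raise every one of these values. An effective number of beta genes, the inverse Simpson index of the counts per kb, was 11.96 to 13.65 in every library, so many beta genes contributed to each pool. Because a sample held a pool of many sorted cells, these values do not show how many beta genes a single cell used, and a change in the share of cells using a gene cannot be told apart from a change in RNA per cell.

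No clustered protocadherin passed the test between mutant and wild type. Of the 24 rows 23 passed the filter on low counts, Pcdhb1 being the exception, and 0 of 23 had an edgeR adjusted p below 0.05, against 0.359% of all 19494 tested genes. DESeq2 and limma-voom also called 0 of the 23. At an unadjusted p below 0.05 edgeR listed 3 of 23 (13%), the alpha row, Pcdhb6 and Pcdhb9, against 12.5% of all tested genes, a share near the background. The mutant libraries lay wholly below the wild type libraries for 1 of 23 members, Pcdhb6, against 2.94% of all tested genes, and wholly above for 0 of 23, against 3.23%.

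Most fitted differences were small and positive. The log2 fold change, mutant over wild type, was above 0 for 20 of 23 members (87%), beside 48.4% of all tested genes. Its median was 0.19, beside -0.011 over all tested genes. The members share libraries, so they are not separate observations. For the 21 tested beta genes the log2 fold change was above 0 for 18, with a median of 0.19 and a range of -0.80 to 0.62. With only library size as scaling 15 of the 21 were above 0 and the median of all genes was -0.069. Leaving out 1 library at a time gave beta medians from 0.063 (without mutant 4) to 0.37 (without wild type 7). Without mutant 1, wild type 5 and wild type 6, which an earlier look at these data had set apart, the beta median was -0.061 and 7 of 21 genes were above 0. Those 2 wild type libraries had the lowest wild type sums over the beta genes, so their removal raises the wild type mean. Mutant 1 had the lowest mutant sum, 178 CPM against 193 to 230 CPM, so its removal raises the mutant mean too.

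**Figure D2:**
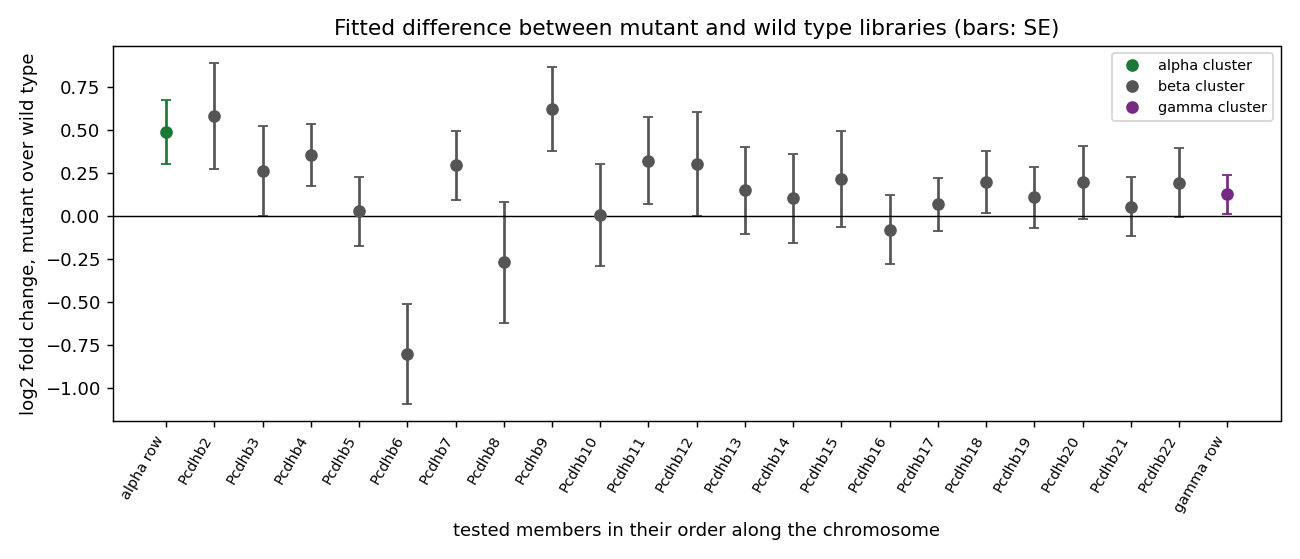
Fitted log2 fold change, mutant over wild type, of the 23 tested members in chromosome order, with bars of 1 standard error. Pcdhb6 is the lowest at -0.80, Pcdhb9 the highest at 0.62, and none passed at an adjusted p of 0.05.

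The alpha row differed most among the 3 clusters without passing. Wild type 5 to 8 stood at 96.3, 90.9, 149 and 136 CPM, and mutant 1 to 4 at 120, 189, 171 and 183 CPM. Mutant 2, 3 and 4 lay above all wild type libraries and mutant 1 lay within their range. The log2 fold change was 0.49 (SE 0.187, edgeR adjusted p = 0.320). Without mutant 1 it was 0.62 (edgeR adjusted p = 0.0725), and in the 5 libraries other than mutant 1 and wild type 5 and 6 it was 0.35 (edgeR adjusted p = 0.346). The 3 lowest alpha levels came from wild type 6, wild type 5 and mutant 1. These libraries also had the lowest Zic1 levels, 2182, 2309 and 2585 CPM against 2694 to 4222 CPM in the rest, but without Zic1 their neuronal marker sums were not the 3 lowest. The part of these markers in the difference was not tested. The biological coefficient of variation of the alpha row was 19.5%, above the median of 13.7% over genes of like level.

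The gamma row differed little. Wild type 5 to 8 stood at 313, 319, 367 and 318 CPM, and mutant 1 to 4 at 371, 339, 311 and 414 CPM. The groups overlapped. Its log2 fold change was 0.12 (SE 0.114, edgeR adjusted p = 0.670), and its coefficient of variation of 12.98% was the smallest among the members. For the ratio of alpha to gamma counts, wild type 5 to 8 gave 0.308, 0.285, 0.406 and 0.430, and mutant 1 to 4 gave 0.323, 0.557, 0.552 and 0.442. Mutant 1 again lay with wild type 5 and wild type 6 at the low end.

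Summed over the beta genes, wild type 5 to 8 held 160, 137, 235 and 199 CPM, and mutant 1 to 4 held 178, 199, 193 and 230 CPM. The highest and the lowest of these sums were both wild type. The log2 ratio of the group means was 0.13 for beta and 0.12 for gamma, against 0.49 for alpha, and for beta it was -0.064 without mutant 1, wild type 5 and wild type 6. Sums carry no test.

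**Figure D3:**
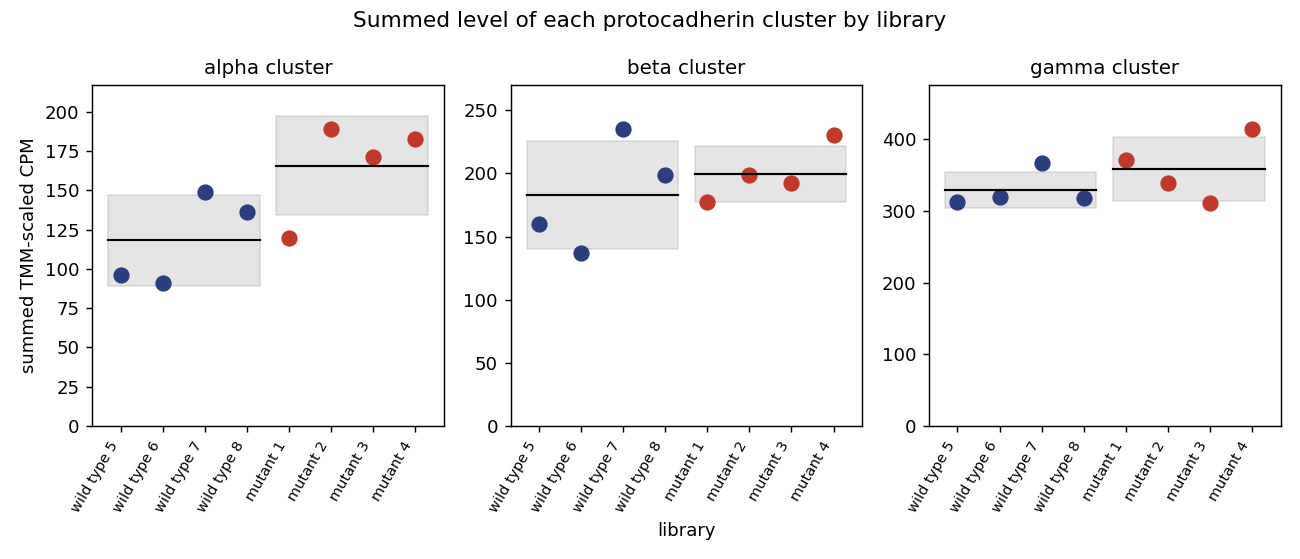
Summed TMM-scaled CPM of the alpha row, the 22 beta genes and the gamma row in each library, on axes that start at 0, with the group mean as a black line and the mean ± 1 SD as a grey band (n = 4). The alpha sum is lowest in wild type 5, wild type 6 and mutant 1, and the groups overlap in each panel.

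Pcdhb6 (ENSMUSG00000051678, chr18:37333921-37337674) was the member with separate groups. Wild type 5 to 8 stood at 1.72, 1.75, 1.92 and 1.82 CPM, and mutant 1 to 4 at 1.05, 1.22, 0.583 and 1.32 CPM. Each mutant library lay below the lowest wild type library, and the log2 fold change was -0.80 (SE 0.291, edgeR adjusted p = 0.299). Across the alternatives run, it ranged from -0.94 to -0.59 with adjusted p-values from 0.166 to 0.620. Pcdhb6 was among the least abundant members, with 393 counts over the 8 libraries, and 7.54% of its 50-base stretches also occur in other genes, most often in Pcdhb8. Its share of beta counts was 1.02% in wild type and 0.521% in mutant libraries.

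Pcdhb8 and Pcdhb16 were the other members with a negative difference. For Pcdhb8, wild type 5 to 8 stood at 1.95, 1.09, 2.75 and 3.14 CPM and mutant 1 to 4 at 2.26, 1.46, 1.204 and 2.54 CPM, with overlap (log2 fold change -0.27, SE 0.350, edgeR adjusted p = 0.769). The log2 fold change of Pcdhb16 was -0.082 (SE 0.200, edgeR adjusted p = 0.894), which became 0.11 without wild type 7. Its share of beta counts was 15.4% in wild type and 13.3% in mutant libraries, whereas that of Pcdhb17 was 14.2% and 13.7%. The log2 fold change of Pcdhb17 was 0.067 (SE 0.155, edgeR adjusted p = 0.888), which became -0.064 without wild type 6.

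Pcdhb9 (ENSMUSG00000051242, chr18:37400855-37403909) had the largest positive difference. Wild type 5 to 8 stood at 2.03, 3.62, 3.86 and 3.85 CPM, and mutant 1 to 4 at 3.80, 4.96, 5.69 and 6.02 CPM. Mutant 2, 3 and 4 lay above every wild type library, and mutant 1 fell among them. The log2 fold change was 0.62 (SE 0.245, edgeR adjusted p = 0.333), and 8.75% of the gene's 50-base stretches also occur elsewhere, most often in Pcdhb7. Pcdhb2 came next at 0.58 (SE 0.308, edgeR adjusted p = 0.464) and rested on 1 library. It was at 5.50 CPM in mutant 1, 2.20 to 2.65 CPM in mutant 2 to 4 and 1.64 to 2.43 CPM in wild type libraries, and without mutant 1 the log2 fold change was 0.18.

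Mutant 1 departed from the other mutant libraries in several beta genes. Pcdhb20 was at 8.71 CPM there, against 15.5 to 16.4 CPM in mutant 2 to 4 and 9.31 to 14.2 CPM in wild type libraries. Pcdhb7 was at 9.66 CPM there, against 13.1 to 14.6 CPM in mutant 2 to 4 and 7.36 to 12.98 CPM in wild type libraries. Without mutant 1 the groups did not overlap for 6 of 23 members, but 16.9% of all tested genes then did so too. Without wild type 7 they did not overlap for 3 members, against 11.3% of all tested genes, and without wild type 8 for 2, against 10.2%. Without mutant 1, wild type 5 and wild type 6 the number was 8, against 27.3%.

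**Figure D4:**
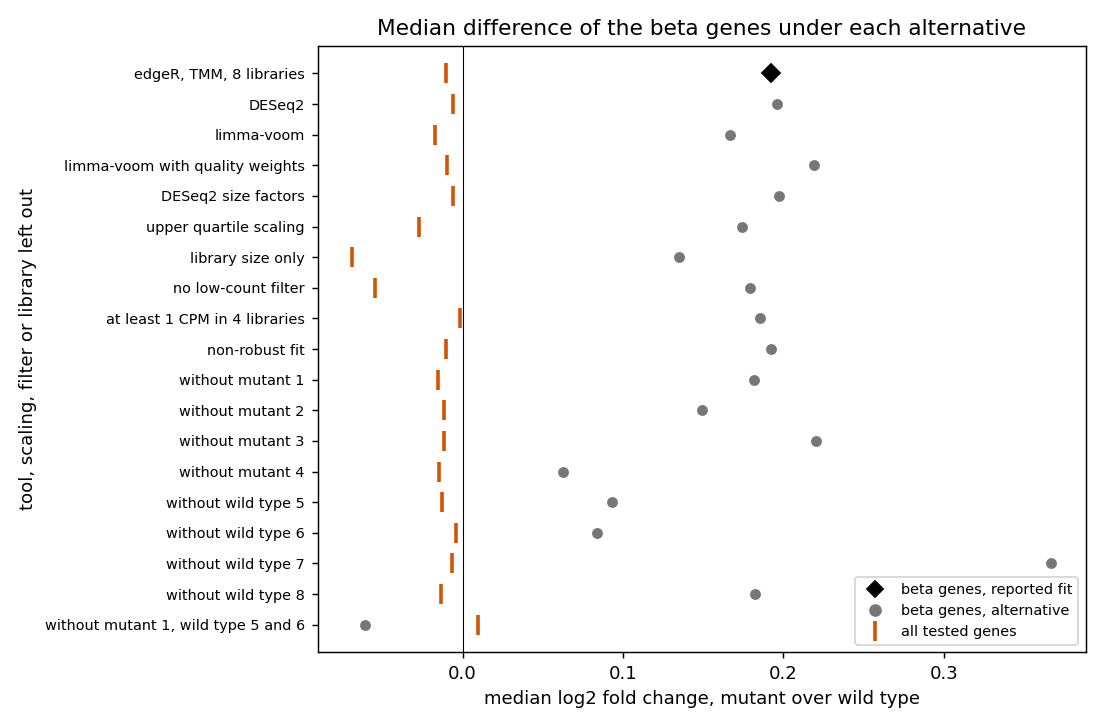
Median log2 fold change, mutant over wild type, of the 21 tested beta genes (diamond for the reported fit, grey circles for the alternatives) and of all tested genes (orange ticks), 1 row per tool, scaling, filter or set of libraries left out. The beta median is 0.19 in the reported fit, 0.063 to 0.37 when 1 library is left out, and -0.061 once mutant 1 and wild type 5 and 6 are dropped together.

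Positive differences occurred in both stretches of the beta cluster. Among the 14 tested genes from Pcdhb2 to Pcdhb15, 12 were above 0 with a median log2 fold change of 0.24, and among the 7 from Pcdhb16 to Pcdhb22, 6 were above 0 with a median of 0.11. Spearman's rho between log2 fold change and order was -0.25, and between log2 fold change and mean level per kb 0.051 (21 genes, which share libraries, so no p is given). Most members varied more between libraries than genes of like level: their coefficient of variation ran from 12.98% (gamma row) to 34.3% (Pcdhb8), and 5 of 23 lay below the median of genes within 0.25 log2 CPM of their own level. The common coefficient over all genes was 23.2%.

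The chromatin proteins that act on these promoters all had enough counts to be tested, and none passed. Of 26 such genes tested, edgeR called 0, as did DESeq2 and limma-voom. At an unadjusted p below 0.05 edgeR listed 1 (3.85%), beside 12.5% of all tested genes. The log2 fold change was below 0 for 19 and above 0 for 7 (26.9%, beside 48.4% of all tested genes). Its median was -0.090 beside -0.011 over all genes. Ctcf, which encodes the insulator protein that tethers promoters to enhancers in these clusters, averaged 165 CPM (wild type) and 161 CPM (mutant; log2 fold change -0.038, edgeR adjusted p = 0.900). Rad21, a cohesin subunit, was at 285 ± 39.7 and 239 ± 21.3 CPM (SD, n = 4 each; log2 fold change -0.25, SE 0.120, edgeR adjusted p = 0.414). Trim28, a corepressor that recruits histone methylation, was at 269 ± 73.1 and 186 ± 24.3 CPM (SD, n = 4 each; log2 fold change -0.53, SE 0.182, edgeR adjusted p = 0.277). Smchd1, a repressor of the clusters, had a log2 fold change of -0.10 (edgeR adjusted p = 0.754), and Dnmt3b, which methylates their promoters, 0.014 (edgeR adjusted p = 0.983).

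No gene passed among the intracellular partners. Of 25 genes for kinases, proteases and actin regulators linked to protocadherins, edgeR called 0, as did DESeq2 and limma-voom. At an unadjusted p below 0.05 edgeR listed 4 (16%), beside 12.5% of all tested genes. The median log2 fold change was -0.034. The smallest p-values belonged to Cyfip1, a subunit of the WAVE actin regulator, at 77.9 ± 8.76 and 59.7 ± 7.63 CPM (SD, n = 4 each; log2 fold change -0.38, SE 0.121, edgeR adjusted p = 0.240), and to Ret, a receptor tyrosine kinase, at 7.27 ± 1.34 and 10.8 ± 2.03 CPM (SD, n = 4 each; log2 fold change 0.57, SE 0.186, edgeR adjusted p = 0.256).

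Genes flanking the clusters or lying between them did not pass either. Of 23 listed, 21 were tested, and edgeR, DESeq2 and limma-voom called 0 each. At an unadjusted p below 0.05 edgeR listed 3 (14.3%), beside 12.5% of all tested genes. Without mutant 1 edgeR called 1, where it called 544 of all 20124 tested genes. The median log2 fold change was 0.043. Taf7, a transcription factor subunit gene between the beta and gamma clusters, had a log2 fold change of 0.27 (edgeR adjusted p = 0.422), and Diaph1, an actin nucleator beyond the gamma cluster, -0.069 (edgeR adjusted p = 0.800). Rell2 and Fchsd1 had the smallest p-values, with log2 fold changes of 0.54 (SE 0.200, edgeR adjusted p = 0.306) and 0.48 (SE 0.184, edgeR adjusted p = 0.319).

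A call did occur among the protocadherins outside the clusters. Of 13 tested, edgeR called 1 higher and 0 lower, against 0.359% of all tested genes, and the median log2 fold change was 0.35. At an unadjusted p below 0.05 edgeR listed 5 (38.5%), beside 12.5% of all tested genes. The list was not compared with other genes by a test. Cdhr1, a cadherin best known from photoreceptors, rose from 2.23 ± 0.569 to 7.60 ± 2.15 CPM (SD, n = 4 each; log2 fold change 1.77, SE 0.255, edgeR adjusted p = 0.0110), and the call was lost without mutant 4 or without wild type 8. DESeq2 called 2 genes of this list, where it called 497 of all 19494 tested genes. Without mutant 1 edgeR called 3, where it called 544 of all 20124 tested genes. Pcdh11x, an X-linked protocadherin, averaged 5.11 CPM (wild type) and 13.9 CPM (mutant; log2 fold change 1.44, SE 0.404, edgeR adjusted p = 0.210). Pcdh19, whose protein regulates adhesion together with N-cadherin, averaged 15.02 CPM (wild type) and 23.8 CPM (mutant; log2 fold change 0.66, SE 0.213, edgeR adjusted p = 0.254). Pcdh15 went the other way, at 27.8 CPM (wild type) and 15.7 CPM (mutant; log2 fold change -0.83, SE 0.359, edgeR adjusted p = 0.387). Of the 13 genes, 8 were above 0 (61.5%, beside 48.4% of all tested genes) and 5 below. Whether the clustered members differ from these genes was not tested.

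Sums of markers of other cell types overlapped between groups in every list. Astrocyte and radial glia markers had the highest of these sums, 605 to 835 CPM in wild type and 377 to 774 CPM in mutant libraries. Inhibitory neuron markers summed to 30.9 to 58.1 CPM in wild type and 44.3 to 102 CPM in mutant libraries. Oligodendrocyte lineage markers summed to 71.0 to 102 and 71.8 to 84.6 CPM, microglial markers to 14.7 to 20.5 and 10.8 to 16.6 CPM, and endothelial and pericyte markers to 11.2 to 29.4 and 8.26 to 21.98 CPM. Csf1r was the largest microglial marker in every library, at 9.81 to 15.2 CPM. C1qa, P2ry12 and Aif1 were at 3.78 CPM or less and lay wholly lower in mutant libraries. Such separation held for 2.94% of all tested genes. Csf1r, Cx3cr1 and Tyrobp overlapped between groups. Sums of meningeal, choroid plexus and blood markers were at most 17.3 CPM in any library, with Hba-a1 at 0 in all. Of the 60 markers listed, not all of which passed the filter on low counts, edgeR called 2, against 0.359% of all tested genes. Both were lower in mutant libraries: the neuronal factor Nhlh1 and the microglial C1qa. Their part in the protocadherin values was not tested.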

How the data were processed

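The authors deposited 1 table of unnormalised counts by Ensembl gene, with a length for each (heading: width). Per the submitters' processing notes, mm10 and bcl2fastq 1.8.4 were used. Aligner, counter, annotation release, strand handling and the treatment of reads with several matches are not given in the sources used here. Column headings showed the group but no replicate number. Of 39017 identifiers 37607 had a symbol in GENCODE M21, which also gave coordinates.

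Counts of 4 mutant and 4 wild type libraries were compared in R 4.3.3 with edgeR 4.0.16: filterByExpr, TMM scaling, robust quasi-likelihood F test, Benjamini-Hochberg over all tested genes, adjusted p below 0.05. SEs are the absolute log2 fold change over the square root of F. Alternatives used DESeq2 1.42.0 and limma 3.58.1, other scalings and filters, and libraries left out. The fit was tested on simulated data.

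Named members were those highest per kb, those with the largest differences among genes averaging log2 CPM 1 or more, and those with separate groups. From other lists the genes past the threshold, or the 2 with the smallest p, were named. Ctcf, Smchd1, Dnmt3b, Taf7, Diaph1, Pcdh11x, Pcdh19, Zic1, Pcdhb1, Pcdhb7 and other beta genes of the level order were named outside this rule, after their values were seen. The same holds for Pcdh15, Lhx2 and Lhx9. Members and lists were chosen with earlier results of these data known. No sequence is shown.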

Additional observations from a re-analysis of the deposited data

Results flagged for a closer look

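In 4 of 48 groups of 4 libraries (8.33%), each a member within wild type or within mutant, 1 library stood apart from the others by Dixon's criterion at the 95% level (gap over range). Chance flags about 1 in 20 such groups. Mutant 1 accounted for a pair of them: Pcdhb2 was at 5.50 CPM there against 2.20 to 2.65 CPM in the other mutant libraries, and Pcdhb20 was at 8.71 CPM there against 15.5 to 16.4 CPM. Pcdhb9 was at 2.03 CPM in wild type 5 against 3.62 to 3.86 CPM in the other wild type libraries. The gamma row was at 366.8 CPM in wild type 7 against 313 to 319 CPM.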

How the results depend on the processing

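The count of 0 members past the threshold held under all 18 alternatives (tools, scalings, filters, libraries left out). No adjusted p of a named member fell below 0.05 under any of them, and the lowest was 0.0725, for the alpha row without mutant 1. Leaving out 1 library at a time, Pcdhb17's log2 fold change ranged from -0.064 to 0.16 and Pcdhb16's from -0.21 to 0.11. Without mutant 1, wild type 5 and wild type 6, Pcdhb17's was -0.11. Groups then did not overlap for 8 of 23 members, against 27.3% of all tested genes. Leaving out 1 library gave 1 to 6 such members, against 7.36% to 16.9% of all tested genes. It gave 0 to 3 calls in the list of protocadherins outside the clusters, where DESeq2 called 2, and 0 to 1 in the list of neighbouring genes. The rank correlation of beta level with order in the cluster was 0.55 with M21 lengths, an alternative added after seeing the data; the change follows from the lengths themselves. Other causes were not tested. Calls over all genes were 70, but 497 by DESeq2, 233 by limma-voom with quality weights, 214 without a low-count filter, 544 without mutant 1, 171 with those 3 libraries left out, and 26 to 36 without mutant 2, mutant 3, mutant 4, wild type 5 or wild type 8. No paired analysis was possible because the column headings carry no replicate number. A correction for constant exons was not run, since alpha and gamma each have a single row. Counting error was widest for Pcdhb1, which had at most 9 counts in a library.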
